A study of Mus musculus with 8 samples.

Results

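Chemokine ligands are small secreted proteins, and this account follows 8 of them across mouse hepatic stellate cell libraries. They were picked by gene symbol from a list of 10 ligands, and 8 of the 10 had a row in the deposited table of 14162 genes: Ccl2, Ccl6, Ccl7, Cxcl1, Cxcl5, Cxcl10, Cxcl12 and Cxcl16. Ccl5 and Ccl24 were not analysed here. All 8 passed the filter on low values and were tested among 13150 genes.

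Stellate cells are the vitamin A storing pericytes of the liver sinusoid, and on activation they become contractile, matrix-producing myofibroblasts. RNA sequencing was done on 4 groups of 2 libraries each, lettered a and b. One group was quiescent, one was activated, and the others were activated cells with miR-15a (labelled activated_miR15a) or with a control microRNA (labelled activated_miRcontrol). The submitters' stated purpose was to predict genes that miR-15a targets. C57BL/6J and SCID mice are both named as sources, but no strain, sex, age or culture time is tied to a library, the way the cells were activated is not stated, and nothing says how the microRNAs were introduced or whether replicates came from separate animals or cultures. P-values therefore rest on the scatter of the libraries at hand, which may be technical.

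Chemokines guide leukocytes by binding receptors that signal through G proteins. They are named for the spacing of their first cysteines, as CC ligands (Ccl) or CXC ligands (Cxcl). Many inflammatory ligands are induced through the transcription factor NF-kB, and some through interferon-activated factors, whereas Cxcl12 is a homeostatic ligand made by mesenchymal cells in many tissues. In the liver, stellate cells, sinusoidal endothelial cells, Kupffer cells (the resident macrophages) and hepatocytes can all secrete chemokines, and Ccl2 from stellate cells and macrophages is known for drawing monocytes into injured liver. MicroRNAs repress transcripts that pair with their seed, bases 2 to 8. The mature mouse miR-15a (miR-15a-5p, RefSeq, GRCm38.p6, chr14:61632075-61632096, minus strand) is shown because its seed, in capitals, defines the site searched for in the ligand transcripts.

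miR-15a-5p: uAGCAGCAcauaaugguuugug

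The deposited values are whole-number scores already forced to a common distribution: all 8 libraries held the same 910 distinct values, so high values lie on shared steps and replicates can be tied. Sequencing depth is unknown. The libraries labelled quiescent also carried abundant transcripts of other liver cells. The summed score of 12 macrophage markers was 137169 to 158710 there, 1758 to 1949 in activated, 12993 to 14303 in miR-15a and 2310 to 2543 in control microRNA libraries. For 12 endothelial markers the sums were 167990 to 238009, 736 to 859, 10316 to 10319 and 868 to 1263. Stab2 alone was at 125636 and 58193 in the quiescent libraries, so the quiescent sum leans on that gene. No marker of either list was at 0 in both libraries of any group, but some were close to it. Marco was at 1 and 0 and Clec4g at 1 and 1 in activated libraries. Myofibroblast markers (8 genes) summed to 510847 to 519800 in activated and 3059 to 3469 in quiescent libraries. Acta2, Col1a2 and Lox each stood at 125636, the highest score in the table, in both activated libraries. Of the defining markers of quiescent stellate cells, Reln was at 7724 and 8724 and Colec11 at 1208 and 1332 in the quiescent libraries, while Lrat and Gfap were not analysed here. A pair of sex-chromosome genes, picked once their levels had been viewed, varied between groups. Xist, transcribed from the inactive X, was at 8724 in both quiescent libraries, 169 and 21 in the activated ones, 3373 in both miR-15a ones and 3373 and 5027 in the control ones. Y-linked Ddx3y was at 40 to 44, 2570 to 2606, 1006 to 1046 and 1268 to 1282 in the same order. A difference between animals cannot be told apart from a difference between these groups. In bulk samples, fewer cells of a type and less RNA per cell cannot be told apart either.

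All 8 ligands were lower in activated than in quiescent libraries, where 34.1% of all genes tested were called lower. All 8 were higher with miR-15a than in activated libraries (16.8% of all genes). Against the control microRNA, 7 were higher with miR-15a (14.4% of all genes) and Cxcl12 was lower (15.4%). The control microRNA libraries were not level with the activated ones, since 5 ligands were called higher there (7.18% of all genes) and none lower (6.61%), all 8 estimates being above 0. Fold changes below are log2 differences of (score + 5) from limma, given with their SE. P-values are adjusted over all genes tested, with a call at an adjusted p under 0.05. A fall or rise on activation means a difference of activated from quiescent libraries.

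**Figure D1:**
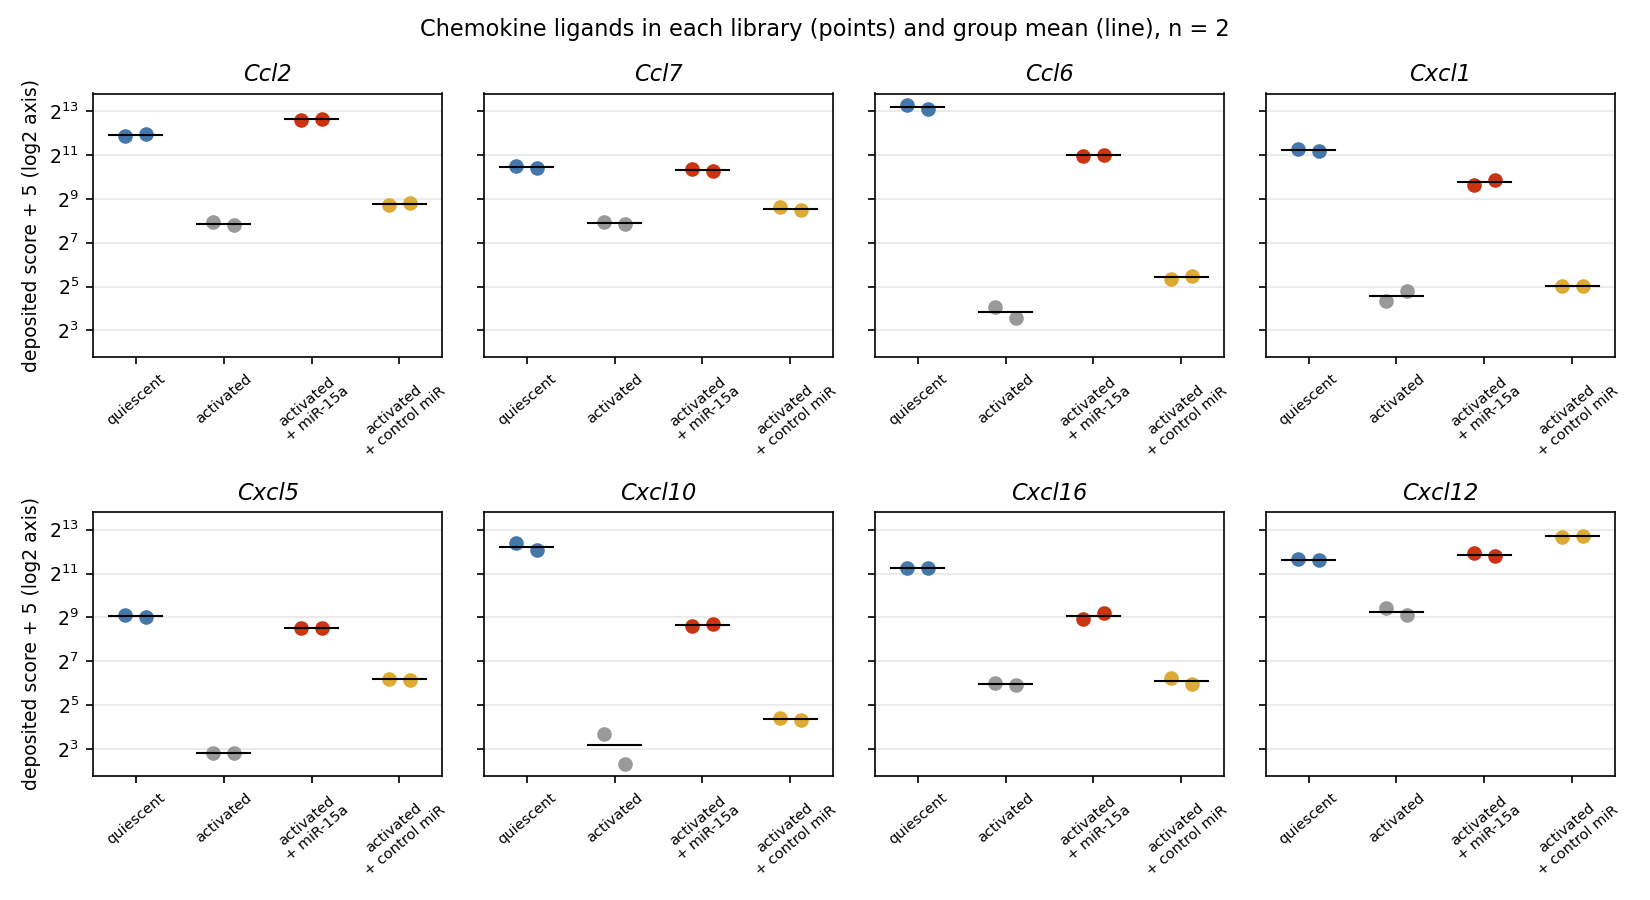
Deposited score plus 5 (log2 axis) of each chemokine ligand in each library, with points for the 2 libraries of a group and a line at the group mean. The activated libraries are lowest for every ligand shown except that Cxcl16 overlaps with the control microRNA libraries (56 and 59 against 58 and 71), and Cxcl12 is highest in the control microRNA libraries, at 6462 and 6822.

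Ccl2 and Ccl7 are CC ligands of Ccr2, the receptor that brings monocytes out of bone marrow and into tissue. Their genes are neighbours on chromosome 11 (GRCm38): Ccl2 (ENSMUSG00000035385.5) spans 82035571 to 82037453 and Ccl7 (ENSMUSG00000035373.2) 82045712 to 82047525, both on the plus strand and 8258 bases apart. Ccl2 scored 3682 and 3994 in quiescent libraries and 241 and 218 in activated ones. It scored 6288 and 6462 with miR-15a and 414 and 444 with the control microRNA. The miR-15a libraries were thus the highest and no groups overlapped. Ccl2 fell by 4.04 on activation (SE 0.07, adjusted p = 7.4e-09) and was higher with miR-15a by 3.88 ± 0.07 against the control microRNA (adjusted p = 1.3e-06) and by 0.73 ± 0.07 against quiescent libraries (adjusted p = 6.2e-05). It was the single ligand of the 8 called higher with miR-15a than in quiescent libraries, a call lost where a log2 change over 1 was also required.

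Ccl7 scored 1451 and 1362 in quiescent, 242 and 226 in activated, 1294 and 1232 in miR-15a and 392 and 350 in control microRNA libraries. The order was quiescent, miR-15a, control microRNA, activated, without overlap, but the first pair of groups did not differ by the test (-0.15 ± 0.08, adjusted p = 0.12). With median-ratio scaling that difference was called (-0.29, adjusted p = 0.010). Ccl7 fell by 2.56 on activation (SE 0.08) and was higher by 1.76 ± 0.08 with miR-15a than with the control microRNA (adjusted p = 9.4e-06). The neighbours did not keep a fixed proportion. The Ccl2 score divided by the Ccl7 score was 2.54 and 2.93 in quiescent libraries, 1.0 and 0.96 in activated, 4.86 and 5.25 in miR-15a and 1.06 and 1.27 in control microRNA libraries. These ratios are not corrected for transcript length and serve to compare libraries, and with 2 libraries a group the smallest two-sided exact permutation p is 0.333.

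Ccl6, a CC ligand found in rodents and made by macrophages and other myeloid cells, lies in a second cluster on chromosome 11 (ENSMUSG00000018927.3, 83587882 to 83593087, minus strand). It scored 9821 and 8724 in quiescent libraries and 12 and 7 in activated ones. With miR-15a it scored 2002 and 2062, and with the control microRNA 36 and 40. No groups overlapped, and the change on activation was -9.34 ± 0.16 (adjusted p = 5.2e-09). The difference between miR-15a and control microRNA, 5.57 ± 0.16 (adjusted p = 1.5e-06), was the largest of the 8 in that comparison. Ccl6 with miR-15a stood at 21.9% of its quiescent mean.

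Cxcl1 and Cxcl5 are CXC ligands of Cxcr2 and attract neutrophils. Both lie on the plus strand of chromosome 5, Cxcl5 (ENSMUSG00000029371.7) at 90759360 to 90761624 and Cxcl1 (ENSMUSG00000029380.11) at 90891241 to 90893115. Cxcl1 scored 2500 and 2302 in quiescent and 15 and 23 in activated libraries. It was at 796 and 936 with miR-15a and at 28 in both control microRNA libraries. It fell by 6.67 on activation (SE 0.17) and was higher with miR-15a than with the control microRNA by 4.72 ± 0.17 (adjusted p = 3.4e-06). Control microRNA and activated libraries did not differ by the test (0.48 ± 0.17, adjusted p = 0.093), although their values did not overlap. Without activated replicate b this difference was called (0.72, adjusted p = 0.047).

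Cxcl5 differed from Cxcl1 in the control microRNA libraries. It scored 548 and 518 in quiescent, 2 and 2 in activated, 364 and 361 in miR-15a and 69 and 66 in control microRNA libraries. All groups were separate. The control microRNA libraries were above the activated ones by 3.37 ± 0.11 (adjusted p = 2.5e-05), and the miR-15a libraries above the control ones by 2.34 ± 0.11 (adjusted p = 1.1e-05). The activated scores lie under the pseudocount of 5, so the fold is compressed: the former difference was 4.51 with a pseudocount of 1 and 1.99 with 20. The ratio of Cxcl1 to Cxcl5 scores was 4.56 and 4.44 in quiescent and 7.50 and 11.5 in activated libraries. It was 2.19 and 2.59 in miR-15a and 0.41 and 0.42 in control microRNA libraries. The activated ratios divide by a Cxcl5 score of 2 without a pseudocount, so a small change in that score would move them widely.

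Cxcl10 is the interferon-induced ligand of Cxcr3, which T cells and natural killer cells carry (ENSMUSG00000034855.13, chromosome 5, 92346638 to 92348889, minus strand). It scored 5345 and 4266 in quiescent libraries and 8 and 0 in activated ones. It was at 384 and 406 with miR-15a and at 16 and 15 with the control microRNA. It fell by 9.21 on activation (SE 0.38). That change was -10.64 with a pseudocount of 1 and -7.66 with 20, against -9.83 and -8.30 for Ccl6, so which of them fell more depended on the pseudocount. It was higher by 4.29 ± 0.38 with miR-15a than with the control microRNA (adjusted p = 2.4e-04). With miR-15a it reached 8.22% of its quiescent mean, the lowest share among the 8 ligands. The control microRNA and activated libraries did not differ by the test (1.35 ± 0.38, adjusted p = 0.056). The size depended on the pseudocount, being 2.46 with 1 and 0.58 with 20, and on the activated libraries, of which replicate b is at 0: the difference was 2.04 (adjusted p = 0.0026) without activated replicate a and 0.66 without replicate b. It was also called with median-ratio scaling (adjusted p = 0.047) and with the replicate letters as a block (adjusted p = 0.048).

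Cxcl16 is made as a transmembrane protein that binds Cxcr6 and can be shed by Adam10 (ENSMUSG00000018920.11, chromosome 11, 70453983 to 70459984, minus strand). It scored 2420 in both quiescent libraries and 59 and 56 in activated ones. It was at 483 and 580 with miR-15a and at 71 and 58 with the control microRNA. It fell by 5.28 on activation (SE 0.12) and was higher with miR-15a than with the control microRNA by 2.95 ± 0.12 (adjusted p = 6.9e-06). Here the activated and control microRNA libraries overlapped, with a difference of 0.15 ± 0.12 (adjusted p = 0.46).

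Cxcl12, the ligand of Cxcr4 and of the scavenging receptor Ackr3, had another order (ENSMUSG00000061353.11, chromosome 6, 117168535 to 117181367, plus strand). It scored 3204 and 3168 in quiescent libraries and 676 and 546 in activated ones. It was at 3894 and 3512 with miR-15a and at 6462 and 6822 with the control microRNA. The control microRNA libraries were the highest and the activated ones the lowest, without overlap between groups. Cxcl12 fell by 2.38 on activation (SE 0.10, adjusted p = 3.8e-07). It was higher than in activated libraries by 3.44 ± 0.10 with the control microRNA (adjusted p = 2.5e-05) and by 2.60 ± 0.10 with miR-15a (adjusted p = 3.8e-06). Between these last groups it was lower with miR-15a, by 0.84 on the log2 scale (-0.84 ± 0.10, adjusted p = 0.0011), in both miR-15a libraries against both control ones. The miR-15a and quiescent libraries did not differ by the test (0.21 ± 0.10, adjusted p = 0.095), although this difference was called without either activated library (adjusted p = 0.031 each) and in a fit of those 2 groups alone (adjusted p = 0.030).

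**Figure D2:**
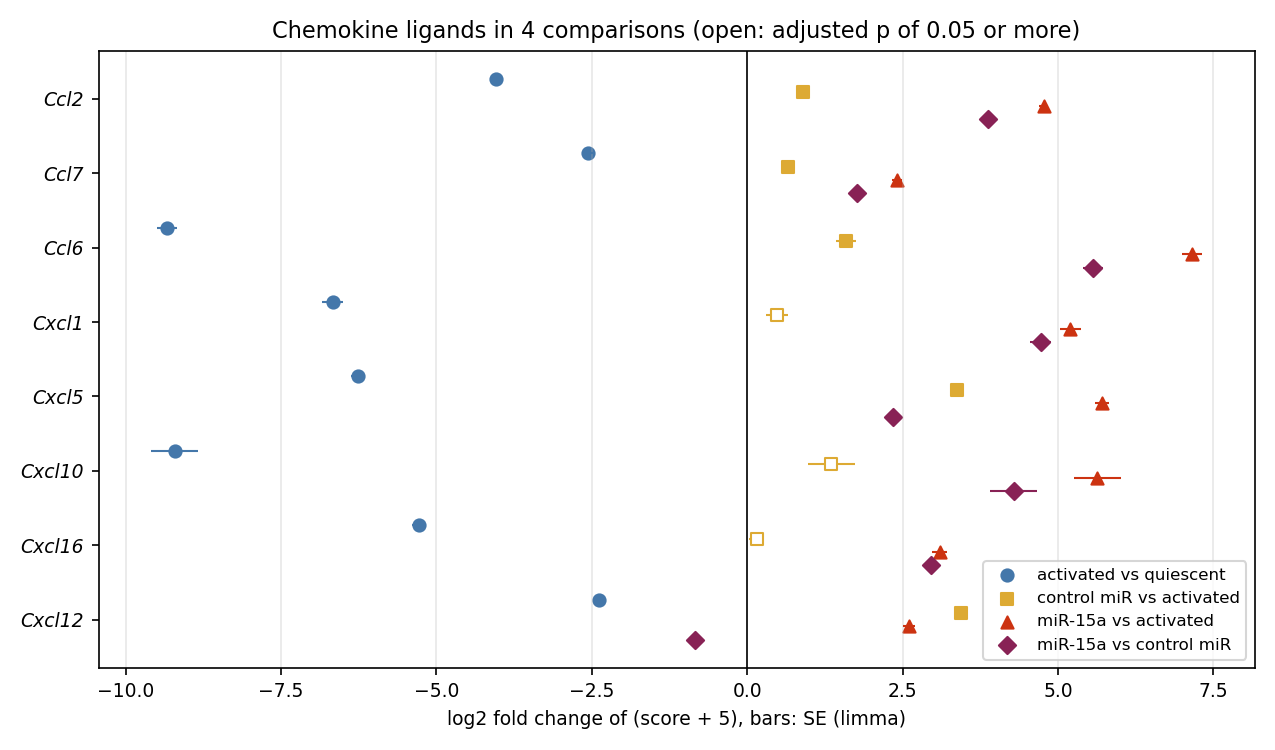
Log2 fold change of (score + 5) with its SE (limma) for each ligand in 4 comparisons, filled where the adjusted p was under 0.05 and open otherwise. The 8 blue points for activation all lie left of 0. Cxcl12 is the ligand whose difference between miR-15a and control microRNA lies left of 0, at -0.84.

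Cxcl12 was also the single ligand of the 8 with a miR-15a seed match in its longest annotated 3′ UTR (GENCODE M21). The seed match searched was TGCTGCT on the transcript strand. It occurs at 2 places in the Cxcl12 3′ UTR of 5188 bases, at chr6:117178230-117178236 and chr6:117180688-117180694, both in exon 4 of 4. The matches are shown in capitals within the transcript.

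Cxcl12 first match: cactgggcaccTGCTGCTgttagggccaa
Cxcl12 second match: tgtttatacacTGCTGCTggctcccgagg

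The other 7 ligands have 3′ UTRs of 275 (Ccl2) to 1421 (Cxcl16) bases with no match. Among 11872 tested genes with an annotated 3′ UTR, whose median length was 1195 bases, 24.4% held the heptamer. A match is a description of the sequence. Whether miR-15a acts on it was not tested, and the Cxcl12 level with miR-15a was above that of activated libraries and below that of control microRNA libraries.

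Promoter sequences were compared because 7 of the ligands were higher, and Cxcl12 lower, with miR-15a than with the control microRNA. RefSeq promoters (GRCm38.p6, 250 bases before to 50 after the annotated start) matched 4 of the 8 ligands: Ccl6, Cxcl1, Cxcl10 and Cxcl12. The search, on both strands, covered the kB motif bound by NF-kB, the interferon-response motif GAAANNGAAA and the AP-1 motif TGANTCA. These occur in 8.46%, 3.44% and 7.81% of 32851 promoters of this length. The Cxcl1, Cxcl10 and Cxcl12 promoters are printed on the strand of the gene. Capitals mark the matches in Cxcl1 and Cxcl10, and Cxcl12 has none.

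Cxcl1 promoter (chr5:90890995-90891294, plus strand): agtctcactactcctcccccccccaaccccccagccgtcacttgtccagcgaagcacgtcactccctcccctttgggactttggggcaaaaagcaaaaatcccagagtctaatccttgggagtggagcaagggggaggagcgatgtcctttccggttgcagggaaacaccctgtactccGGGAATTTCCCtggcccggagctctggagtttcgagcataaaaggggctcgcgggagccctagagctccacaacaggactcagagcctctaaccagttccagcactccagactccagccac
Cxcl10 promoter (chr5:92348840-92349139, minus strand): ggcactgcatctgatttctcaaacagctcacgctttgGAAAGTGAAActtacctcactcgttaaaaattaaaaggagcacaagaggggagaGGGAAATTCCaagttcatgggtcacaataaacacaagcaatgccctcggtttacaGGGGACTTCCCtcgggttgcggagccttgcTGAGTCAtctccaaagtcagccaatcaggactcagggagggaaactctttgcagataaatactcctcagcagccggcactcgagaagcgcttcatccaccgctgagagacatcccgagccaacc
Cxcl12 promoter (chr6:117168285-117168584, plus strand): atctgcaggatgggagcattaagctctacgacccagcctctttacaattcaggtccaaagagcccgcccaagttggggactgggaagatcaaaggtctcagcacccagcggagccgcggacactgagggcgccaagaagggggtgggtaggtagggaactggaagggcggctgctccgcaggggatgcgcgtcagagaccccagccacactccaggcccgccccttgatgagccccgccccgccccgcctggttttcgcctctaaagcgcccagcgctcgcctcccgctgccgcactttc

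In Cxcl1 overlapping kB matches lie at -71 to -62 and -70 to -61 from the start. Cxcl10 has a kB match at -159 to -150, overlapping ones at -104 to -95 and -103 to -94, a GAAANNGAAA match at -213 to -204 and an AP-1 match at -74 to -68. The Cxcl12 window and the Ccl6 window, which is not printed, hold none of the 3 motifs. Ccl6, Cxcl1 and Cxcl10 were all higher with miR-15a than with the control microRNA. No binding was measured.

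Across the 8 ligands, all were lower in activated than in quiescent libraries. Those groups also differed in macrophage, endothelial and sex-chromosome transcripts. Of the 13150 genes tested, 4483 were called lower (5414 with median-ratio scaling) and 5968, or 45.4%, higher (4775). The median log2 fold change was -5.77 over the ligands and 0.21 over all genes. The smallest falls were those of Cxcl12 and Ccl7, which kept 19.2% and 16.6% of their quiescent means. Ccl6 and Cxcl10 kept 0.102% and 0.0832%.

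With miR-15a against the control microRNA, 7 of 8 were called higher and 1 lower, beside 1897 genes higher (2311 with median-ratio scaling) and 2029 lower (1584) over the table. The median was 3.41 over the ligands and -0.07 over all genes. Against activated libraries all 8 were higher with miR-15a, beside 2204 genes higher (3113 with median-ratio scaling) and 2841, or 21.6%, lower (1644) over the table. Their median was 4.98 against -0.10 over all genes, and the changes ran from 2.41 ± 0.08 for Ccl7 to 7.16 ± 0.16 for Ccl6.

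The control microRNA libraries were called higher than the activated ones in 5 ligands, beside 944 genes higher (1371 with median-ratio scaling) and 869 lower (494) over the table. Beside Cxcl12 and Cxcl5 these were Ccl6 (1.59 ± 0.16, adjusted p = 0.0017), Ccl2 (0.89 ± 0.07, adjusted p = 8.4e-04) and Ccl7 (0.65 ± 0.08, adjusted p = 0.0038). When these groups were fitted alone, Ccl6 (adjusted p = 0.061) and Ccl7 (adjusted p = 0.062) were no longer called. This comparison shares the activated libraries with that of miR-15a and activated cells, so each value is given on its own.

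Against quiescent libraries, 5 ligands were lower with miR-15a (Cxcl10, Ccl6, Cxcl16, Cxcl1 and Cxcl5), where 34.4% of genes were, and Ccl2 was higher, where 37.1% were. The log2 fold changes were -3.58 ± 0.38 for Cxcl10, -2.18 ± 0.16 for Ccl6, -2.18 ± 0.12 for Cxcl16, -1.47 ± 0.17 for Cxcl1 and -0.55 ± 0.11 for Cxcl5. With the control microRNA 7 ligands were lower than in quiescent libraries, with a background of 33.0%. Cxcl12 was higher there, by 1.06 ± 0.10 (adjusted p = 4.0e-05), with a background of 40.7%. Median-ratio scaling turned the balance over the table in both comparisons, from 4883 higher and 4525 lower to 4375 and 5049 with miR-15a, and from 5356 and 4340 to 4575 and 5025 with the control microRNA.

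Macrophage and endothelial markers moved in the direction of most ligands on activation and with miR-15a against the control microRNA. Between control microRNA and activated libraries, 1 of 12 macrophage and 1 of 12 endothelial markers were called higher (7.18% of all genes). The same comparison gave 5 of 8 ligands. All 12 macrophage and all 12 endothelial markers fell on activation (34.1% of all genes). With miR-15a against the control microRNA all 12 macrophage markers and 11 endothelial markers rose (14.4% of all genes), and the other endothelial one, Eng, was at 0.06 (adjusted p = 0.80). As shares of their quiescent means, the macrophage markers in miR-15a libraries ran from 2.34% to 39.0% with a median of 11.3%, and the endothelial markers from 0.392% to 47.1% with a median of 11.2%. Above both ranges lay 4 ligands, Ccl2 at 166%, Cxcl12 at 116%, Ccl7 at 89.8% and Cxcl5 at 68.0%. Cxcl1 at 36.1%, Cxcl16 at 22.0%, Ccl6 at 21.9% and Cxcl10 at 8.22% lay within them. In control microRNA libraries, where the macrophage markers ran from 0.0229% to 15.5% and the endothelial ones from 0.026% to 14.9%, Cxcl12 stood at 208% and Ccl7 at 26.4%, and Cxcl5 (12.7%) and Ccl2 (11.2%) were within both ranges. The part of these cell types in the ligand values was not tested.

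**Figure D3:**
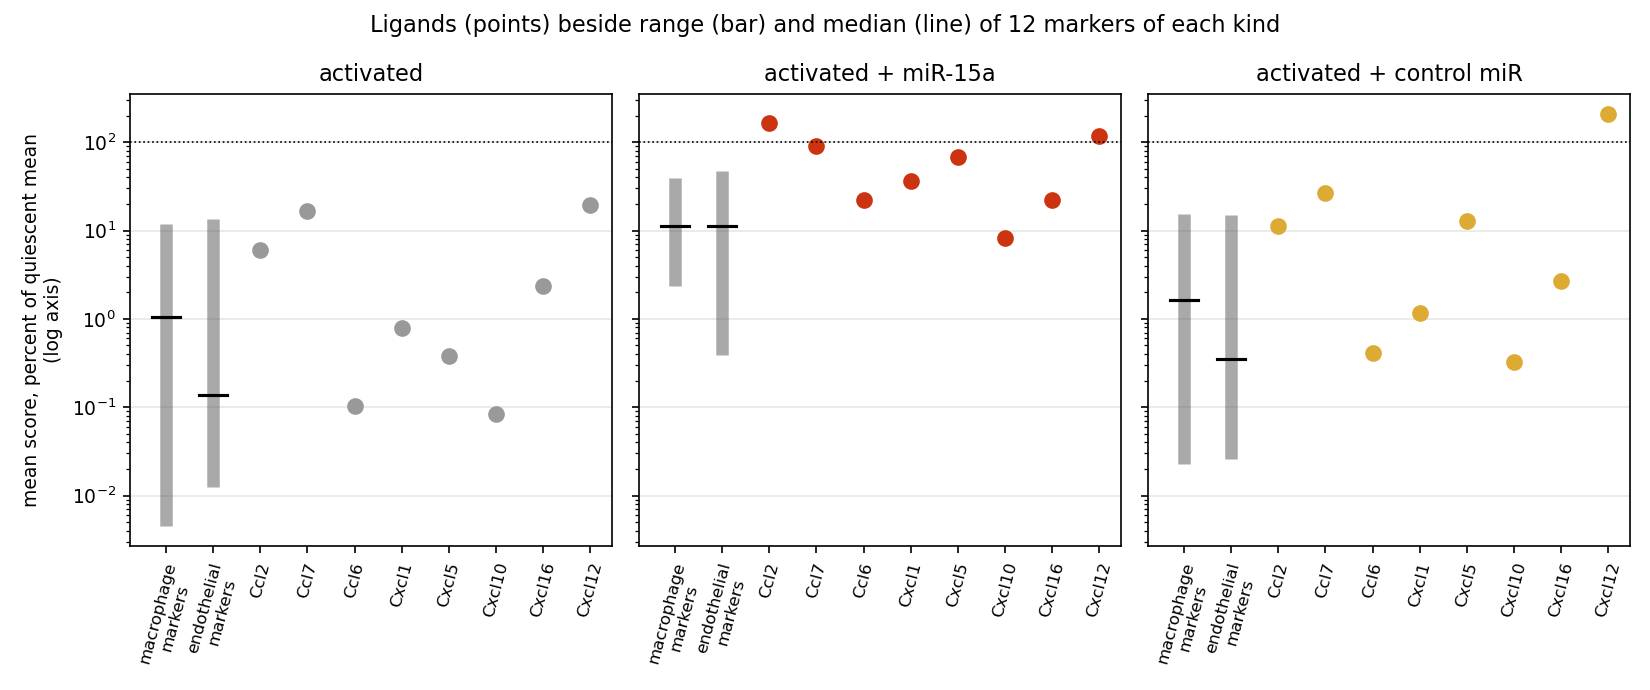
Mean score of each ligand as a percentage of its quiescent mean (log axis) in activated, miR-15a and control microRNA libraries, beside the range (bar) and median (line) of 12 macrophage and 12 endothelial markers. In miR-15a libraries Ccl2, Ccl7, Cxcl5 and Cxcl12 lie above both bars, which end at 39.0% and 47.1%.

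Other leukocyte and liver cell lists moved to different degrees. Both measured neutrophil markers (of 8 listed), Csf3r and Mmp8, rose with miR-15a against the control microRNA (14.4% of all genes). Their summed score was low, at 30 to 32 with miR-15a and 2 to 7 with the control. Of the lymphocyte list 1 marker, Cd3g, had a row, and it did not exceed 7 in any library. Of 9 B and dendritic cell markers listed 3 were measured, and 2 rose with miR-15a against the control microRNA (14.4% of all genes). Both scored low. Clec9a rose by 2.05 (22 and 14 against 1 and 0) and Itgax by 0.88 (16 and 16 against 5 and 8). Zbtb46 did not pass (-0.06, adjusted p = 0.84). All 9 hepatocyte markers measured were lower in activated than in quiescent libraries (34.1% of all genes). Their median share of the quiescent mean with miR-15a was 11.2%. Their summed score was 1305 to 1859 with miR-15a and 172 to 1164 with the control. None passed the test in limma at the adjusted threshold between these groups (2 of 9 had an unadjusted p under 0.05). Every one of the 9 was higher in control replicate b than in control replicate a, such as Alb at 640 against 48. Of 8 myofibroblast markers 2 were called lower with miR-15a than with the control microRNA (15.4% of all genes) and none higher. The top step of the shared scale, 125636, was held by Col1a2 in both libraries of both groups and by Acta2 in replicate a of each. Ties at that step cannot show an unchanged level.

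Genes with the closest profiles were sought by the root-mean-square distance between centred log2 profiles over the 8 libraries, among 13149 other genes. Ccl2 was closest to Angpt2, a vascular growth factor made by endothelial cells (distance 0.38), and Ccl7 to Ecscr, an endothelial cell surface protein (0.17). In miR-15a libraries Angpt2 stood at 114% and Ecscr at 92.0% of their quiescent means, above the range of the 12 endothelial markers. Cxcl10 was closest to Tie1 (0.27) and Esam (0.29), both endothelial genes, and Ccl6 to Mmrn2 (0.35) and Egfl7 (0.45), also endothelial genes. Tie1 and Egfl7 are among the 12 endothelial markers. Cxcl16 was closest to Rtp4, an interferon-induced gene, and Apoe, an apolipoprotein gene (0.16 each). Cxcl1 was closest to the immunoproteasome subunit gene Psmb8 (0.37) and the interferon-induced GTPase gene Gbp9 (0.38), and Cxcl5 to Trim30d (0.48) and I830012O16Rik (0.49). Second for Ccl2 and Ccl7 were Cd55, a complement regulator (0.45), and Nmi (0.20). Olfml3 was among the genes closest to Cxcl12 (0.40). Among the ligands themselves Ccl6 and Cxcl10 were nearest to each other (0.65), and Cxcl12 was farthest from its nearest fellow ligand, Ccl7 (1.22).

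Of 29 other chemokine ligands listed, 8 were measured, and they were less uniform. On activation 5 fell (34.1% of all genes) and 2 rose (45.4%), and with miR-15a against the control microRNA 5 rose (14.4%) and 1 fell (15.4%). Ccl9, whose gene neighbours Ccl6, scored 2865 and 3263 in quiescent, 240 and 235 in activated, 762 and 756 in miR-15a and 192 and 206 in control microRNA libraries. It was higher with miR-15a than with the control by 1.91 (adjusted p = 6.9e-06). The macrophage ligands Ccl3 and Ccl4 and the platelet factor gene Pf4 rose by 2.81, 2.13 and 1.88 in the same comparison. Cxcl11, another Cxcr3 ligand, also rose, by 3.34 (adjusted p = 0.019).

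The membrane-bound ligand Cx3cl1 (fractalkine) went the other way. It scored 4 and 8 in quiescent, 416 and 515 in activated, 156 and 140 in miR-15a and 412 and 386 in control microRNA libraries. It rose on activation by 5.43 and was lower with miR-15a than with the control (-1.40, adjusted p = 0.0019). Ccl17, a ligand of Ccr4, rose on activation by 4.33, from 0 and 1 to 106 and 104, and scored 22 in both miR-15a libraries and 35 and 30 in control ones (-0.47, adjusted p = 0.079). Ccl17, Cx3cl1 and Cxcl11 were chosen after their values were seen.

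Of 18 chemokine receptors listed 11 were measured and 9 passed the filter. On activation 5 fell (34.1% of all genes) and 2 rose (45.4%), and with miR-15a against the control microRNA 3 rose (14.4%) and 2 fell (15.4%). Ccr2, the receptor of Ccl2 and Ccl7, scored 134 and 112 in quiescent, 29 and 32 in activated, 94 and 64 in miR-15a and 22 and 20 in control libraries, and rose by 1.67 with miR-15a (adjusted p = 0.0011). Cxcr4, the receptor of Cxcl12, rose by 1.41 (adjusted p = 0.0013). Xcr1, a receptor of dendritic cells, fell (-0.58, adjusted p = 0.031). Cx3cr1, the Cx3cl1 receptor, was at 48 and 34 with miR-15a against 74 and 62 with the control (-0.68, adjusted p = 0.047). The receptors Cxcr2 and Cxcr3 were not analysed here, and Cxcr6 did not pass (-0.41, adjusted p = 0.16). Cx3cr1 and Cxcr6 were chosen after their values were seen.

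Of 8 genes for atypical receptors and ligand-cleaving proteases, 6 were measured. On activation 5 fell (34.1% of all genes) and Ackr3 rose (45.4%). Ackr2, a scavenger of inflammatory CC ligands, scored 262 and 280 in quiescent, 3 and 3 in activated, 13 and 11 in miR-15a and 1 and 1 in control libraries, and rose with miR-15a against the control (adjusted p = 6.6e-04). Ccrl2 rose by 2.06. Ackr3, which takes up Cxcl12, scored 100 and 94 with miR-15a and 199 and 136 with the control (-0.73, adjusted p = 0.022), so it and Cxcl12 were both lower with miR-15a. Adam10 and Adam17, proteases that shed membrane-bound ligands, did not pass (-0.42 and 0.41, adjusted p = 0.059 and 0.069).

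**Figure D4:**
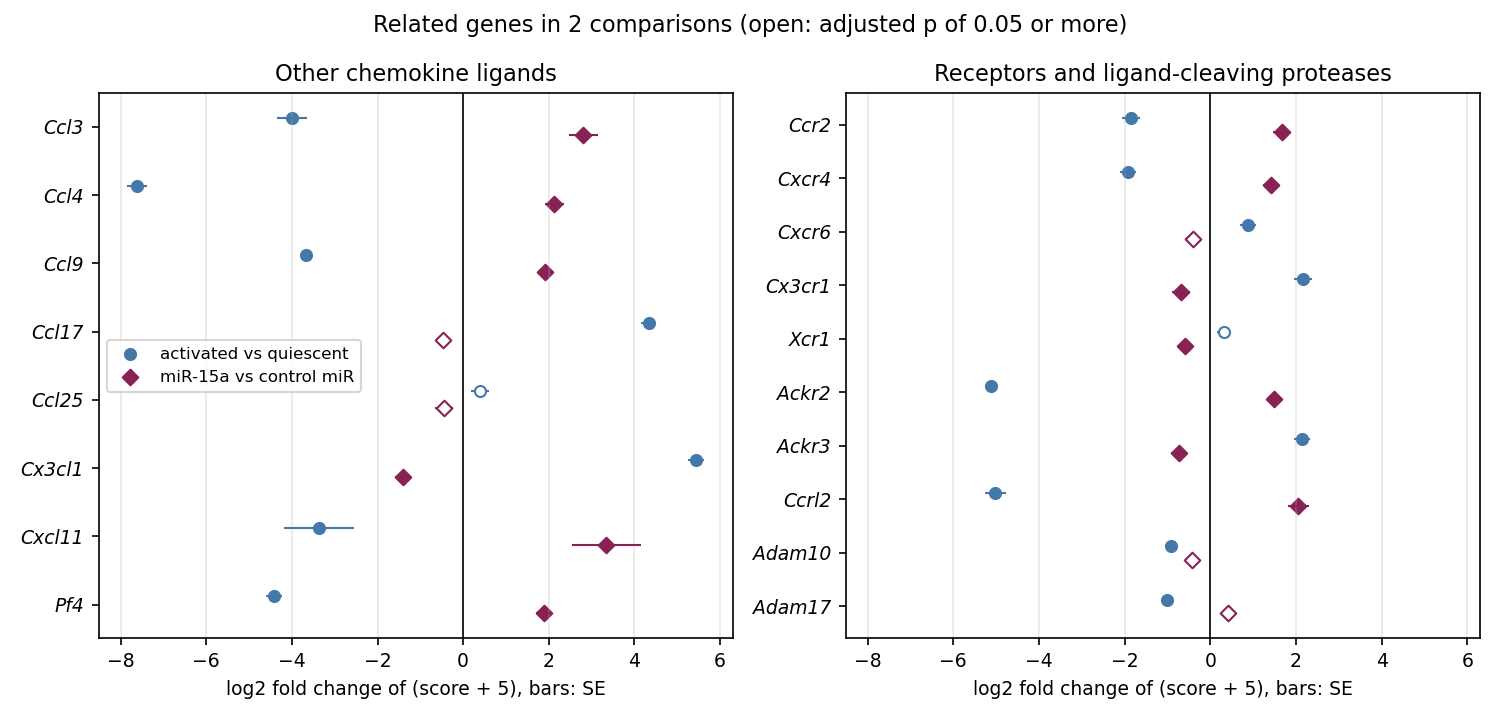
Log2 fold change of (score + 5) with its SE (limma) of other chemokine ligands, and of the receptors and ligand-cleaving proteases named in the text, on activation (blue) and with miR-15a against the control microRNA (purple), filled where the adjusted p was under 0.05. Cx3cl1 lies right of 0 on activation, at 5.43, and left of 0 with miR-15a, at -1.40.

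A list of cytokine, receptor and signalling genes linked to chemokine induction, inhibitors such as Nfkbia included, was examined next. Of 29 measured, 25 fell (34.1% of all genes) and 1 rose (45.4%) on activation, with a median of -2.23. Between miR-15a and the control microRNA 18 rose (14.4%) and 1 fell (15.4%) with miR-15a, with a median of 0.66. Irf8, found in macrophages and dendritic cells, rose by 3.93, Irf9 by 2.07 and Irf7 by 3.86. Il1b rose by 2.73, from 8 and 15 to 91 and 114. The NF-kB inhibitor gene Nfkbia rose by 1.85, while Rela, an NF-kB subunit, did not pass (0.02, adjusted p = 0.90). Tnf scored 24 and 16 with miR-15a, 4 and 8 with the control and 771 and 748 in quiescent libraries, and the Il1 receptor gene Il1r1 fell (-0.68, adjusted p = 0.0015). Il1b, Nfkbia, Rela, Tnf and Il1r1 were chosen after their values were seen.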

How the data were processed

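Per the labels' protocols, TRIzol RNA of 8 samples was made into TruSeq libraries and read single-end on a NextSeq. Per the submitters' processing notes, STAR, Subread and featureCounts were used with mm10; settings and strandedness are not given in the sources used here. The deposited values are named read counts but are normalized scores: 910 distinct whole numbers are shared by all libraries, and totals lie between 10193036 and 10234768. Depth is unknown, so no count model or counting interval was used.

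Genes scoring 10 or more in 2 or more libraries were tested with limma 3.58.1 (R 4.3.3) on log2(score + 5), with 4 group means, a prior variance fitted against the mean level and Benjamini-Hochberg adjustment. This scale understates changes of low genes. Every ligand was described; of each other list, up to 4 genes with the smallest p in miR-15a against control microRNA were named, and any other was chosen after its values were seen. Some genes these rules name are not reported here. Members and lists were chosen with earlier results of these data known. Gene positions and 3′ UTRs came from GENCODE M21 (GRCm38, the assembly behind mm10). Alternatives covered the pseudocount, filter, scaling, libraries fitted, replicate letter, prior, a fold limit and each library left out.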

Additional observations from a re-analysis of the deposited data

How the results depend on the processing

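Across 16 alternatives, 753 of 768 values (8 ligands in 6 comparisons) kept their direction and side of the threshold, 8 gained a call, 7 lost one and none of those called in either setting changed sign. Leaving out each library never changed the count of 8 ligands called on activation or with miR-15a against activated or control microRNA libraries. In the comparison of control microRNA with activated libraries, 5 called ligands became 3 when these groups were fitted alone and 3 under the added requirement of a log2 change beyond 1. That requirement also took miR-15a against quiescent from 6 to 4 and, by the loss of Cxcl12, miR-15a against control microRNA from 8 to 7, while fitting the compared groups alone gave 7 for miR-15a against quiescent, 2 of them higher. Median-ratio scaling shifted the comparison of activated with quiescent libraries by -0.28 and that of miR-15a with activated libraries by 0.14, the control microRNA with quiescent by -0.20 and miR-15a with quiescent by -0.13.

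Genes called over the whole table were less stable. Fitting the compared groups alone gave 2093 for miR-15a against control microRNA (from 3926) and 276 for control microRNA against activated cells (from 1813). Requiring a log2 fold change over 1 gave 6019 for activated against quiescent (from 10451), 898 for miR-15a against control microRNA, 1177 for miR-15a against activated (from 5045), 322 for control microRNA against activated, 5211 for miR-15a against quiescent (from 9408) and 5634 for control microRNA against quiescent (from 9696). Leaving out each library in turn gave 2375 to 3613 for miR-15a against control microRNA, lowest without miR-15a replicate b and, at 2381, without control microRNA replicate b. It gave 2764 to 5128 for miR-15a against activated cells, lowest without activated replicate b, then 3302 without miR-15a replicate b and 3346 without activated replicate a. For control microRNA against activated cells it gave 490 to 1688, with 490 and 683 without activated replicates b and a, 669 without control replicate b and 1194 without quiescent replicate a. Fits without some libraries rest on fewer samples, and no other cause was tested. With the replicate letter as a block (replicate block), 8 ligands were again called for miR-15a against control microRNA and 3776 genes over the table, and 5 ligands became 6 for control microRNA against activated cells. Correlations over genes between the deviations of same-lettered libraries in different groups were -0.07 to 0.09. With 2 libraries a group these cannot show whether a letter marks a shared animal, culture or batch, which the labels do not state.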
